A study of Mus musculus with 7 samples.

Results

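The subject is the Myb and Myc families of transcription regulators in mouse EML cells that were sorted on CD34, a surface protein of blood progenitors. The members were chosen by gene symbol from the deposited expression table: Myb, Mybl2, Myc, Mycn, Max, Mxd1, Mxd3, Mxd4 and Mxi1. All 9 were listed once each among 20464 rows, and all 9 passed the filter on low values (at least 1 FPKM in at least 3 libraries) with 9259 genes in all. EML is a mouse blood progenitor line, immortalised with a dominant-negative retinoic acid receptor and grown with stem cell factor, that can form erythroid, myeloid and lymphoid cells. RNA of Annexin V-negative (live) cells was sequenced in 4 CD34-negative and 3 CD34-positive libraries. Both groups carry the strain label C57BL/6, the tissue label bone marrow and an age label of postnatal day 14.7, while the source label of every library names the EML line. Titles were followed for the groups, since the genotype label of the negative group has CD43 in place of CD34. A single line limits both groups as a model of marrow, and nothing in the labels says that replicates came from separate cultures, so the spread between libraries may be technical.

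Myb is the founding member of a family that binds DNA through repeated helix domains, and blood progenitors need it to self-renew and to enter the myeloid and lymphoid lineages. Mybl2 (B-Myb) joins the MuvB complex and switches on genes of late S phase and mitosis in dividing cells. Myc and Mycn pair with Max to bind the E-box CACGTG and raise genes of growth, ribosome formation and metabolism, while Mxd1, Mxd3, Mxd4 and Mxi1 compete for Max and repress through Sin3. In many lineages maturation comes with falling Myc and rising Mxd proteins.

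The RefSeq promoter table (build GRCm38.p6) held 8 of the 9 members, all but Myc, in 10 windows because Mxi1 has several starts. The 250 bases before the start were searched for the Myc and Max E-box CACGTG, which is its own reverse complement, and for TTGGCG on both strands, a core shared by E2F sites that was chosen after the sequences had been read. The E-box stood in 1 member, Mxd4, and in 6.02% of all 32851 windows of that length. TTGGCG stood in 3 members, Myb, Mybl2 and Mycn, and in 5.87% of all windows. The 10 bases TTGGCGGGAG, which overlap that core, are the run that Myb and Mybl2 share. Their presence in both was therefore fixed by how the run was picked. The run starts 11 bases before the start in Myb and 15 in Mybl2, and stood in 0.0852% of all windows. Myb and Mybl2 are shown for that shared stretch, Mxd4 for its E-box and Mxi1 because it differed most between the groups. Capitals mark TTGGCG or CACGTG, and each is written 5′ to 3′ on the strand of the gene. No binding was measured here, and a match is only a description of the letters.
Myb, chr10:21160985-21161234, minus strand: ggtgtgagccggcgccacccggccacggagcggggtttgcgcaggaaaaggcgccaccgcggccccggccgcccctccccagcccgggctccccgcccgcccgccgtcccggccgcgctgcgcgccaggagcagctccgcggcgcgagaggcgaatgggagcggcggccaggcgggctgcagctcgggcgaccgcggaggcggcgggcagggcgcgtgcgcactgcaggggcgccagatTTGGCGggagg
Mybl2, chr2:163054385-163054634, plus strand: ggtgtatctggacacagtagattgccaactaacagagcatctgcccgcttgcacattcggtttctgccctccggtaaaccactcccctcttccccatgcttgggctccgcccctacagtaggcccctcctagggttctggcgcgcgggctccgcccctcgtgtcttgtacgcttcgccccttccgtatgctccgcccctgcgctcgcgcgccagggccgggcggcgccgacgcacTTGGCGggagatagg
Mxd4, chr5:34187711-34187960, minus strand: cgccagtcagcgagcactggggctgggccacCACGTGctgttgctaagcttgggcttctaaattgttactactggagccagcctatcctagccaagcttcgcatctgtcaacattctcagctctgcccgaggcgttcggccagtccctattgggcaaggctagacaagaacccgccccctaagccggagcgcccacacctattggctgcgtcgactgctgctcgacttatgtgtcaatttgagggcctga
Mxi1, most upstream start, chr19:53310256-53310505, plus strand: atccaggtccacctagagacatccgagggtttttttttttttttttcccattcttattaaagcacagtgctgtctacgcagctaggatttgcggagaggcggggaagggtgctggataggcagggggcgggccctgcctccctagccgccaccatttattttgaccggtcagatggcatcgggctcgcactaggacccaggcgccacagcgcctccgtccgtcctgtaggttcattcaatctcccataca

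The unit is FPKM, which counts fragments relative to transcript length and to all mapped fragments, and the number of fragments behind a value is unknown. Per library, 8606 to 9117 genes were at 1 FPKM or more. The descriptions number the libraries 2, 3 and 4, and libraries of equal number were taken as CD34-negative and CD34-positive pairs. The labels state no pairing, which was inferred from correlations in these data. The positive library of number 3 is labelled 3a and its negative library 3. Number 4 has 2 negative libraries (replicates 3 and 4, labelled 4 and 4a) that share 1 positive library. Ribosomal protein genes took 27.7% to 37.1% of summed FPKM in numbers 2 and 3 but 2.24% to 4.09% in number 4. In number 4, Mir703 alone took 34.5% of summed FPKM in CD34-negative replicate 3 and 13.1% in replicate 4. The largest gene of CD34-positive replicate 3, Snora31, took 3.91%. In numbers 2 and 3 the largest gene took at most 1.84%. Cd34 was between 147 and 256 FPKM in the positive libraries, 91.8 FPKM in CD34-negative replicate 1 and 2.67 to 19.3 FPKM in the other 3 negative ones. All 8 progenitor markers checked (Kit, Ptprc, Gata2, Tal1, Lmo2, Runx1, Ly6a and Cd34) reached 1 FPKM in at least 3 libraries. The macrophage markers used, 5 of the 6 listed, summed to at most 12.5 FPKM. B cell markers summed to at most 1.77 FPKM and T cell markers to at most 2.20 FPKM. The 8 stromal and endothelial markers summed to 53.0 to 134 FPKM in the negative and 97.2 to 160 FPKM in the positive libraries. Only 2 of them, Pdgfrb and Pecam1, reached 1 FPKM in at least 3 libraries, so the sum is mostly theirs. The rest stayed under 1 FPKM, with Col1a2, Col3a1, Pdgfra and Kdr at 0. The 6 hepatocyte markers summed to 35.1 to 164 FPKM in the negative and 149 to 197 FPKM in the positive libraries. Only 1 of them, Trf, reached 1 FPKM in at least 3 libraries, so the sum is mostly Trf. The rest stayed under 1 FPKM, with Alb, Apob and Ttr at 0.

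Members were compared by limma on log2(FPKM + 1), two-sided, as CD34-positive minus CD34-negative. P-values were adjusted over all 9259 genes. No member passed an adjusted p of 0.05, nor did any other gene (0.0% called in each direction, smallest adjusted p = 0.256 in limma). At an unadjusted p under 0.05 limma had 313 genes higher (3.38%) and 210 lower (2.27%), 5.65% in all, and 1 of 9 members, Mxi1, was among the lower ones. Adding the pair number as a replicate block put 1188 higher genes (12.8%) and 846 lower genes (9.14%) below an unadjusted p of 0.05, with Myb among the higher and Myc and Mxi1 among the lower ones. Those 3 of 9 members stood against 22.0% of all genes, and still no gene had an adjusted p under 0.05 (smallest 0.0767).

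Mxi1 was the member that separated the groups. It was lower in all CD34-positive libraries than in any CD34-negative one. A lower level without overlap held for 1 of the 9 members, and for 3.01% of all tested genes (5.68% in either direction). Myc was lower and Myb higher in the positive library of every pair. In all, 3 of 9 members kept 1 sign across the 4 pairs, against 40.3% of all genes, so that count is no more than the table as a whole gave. The plot of member levels shows each library.

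**Figure D1:**
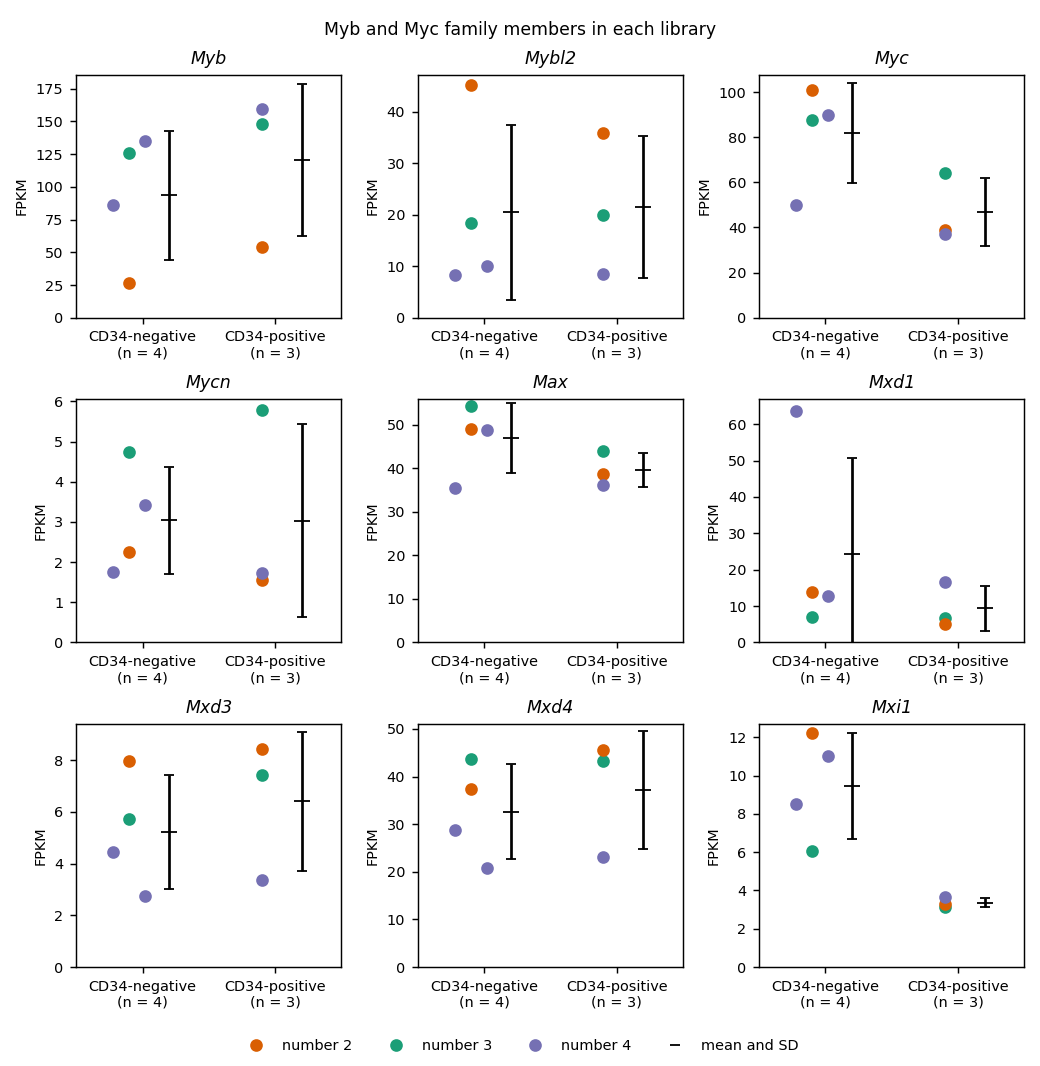
FPKM of the 9 members in 4 CD34-negative and 3 CD34-positive libraries, 1 point per library, coloured by description number, with mean and SD at the right of each group (the lower Mxd1 bar runs past 0 and is not drawn there). The Mxi1 groups do not overlap, and Mybl2 levels follow the number of the library.

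Ranked by mean FPKM over the 7 libraries, a level per length, Myb came first at 105, followed by Myc at 66.9, Max at 43.8 and Mxd4 at 34.6. Mybl2 averaged 20.9, Mxd1 17.9, Mxi1 6.85, Mxd3 5.73 and Mycn 3.03 FPKM. The ranges over the libraries overlapped between every pair of neighbours in this order. The family relative Mybl1 reached 2.40 FPKM at most.

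Myb, the regulator of progenitor identity, stood at 126, 26.6, 85.9 and 135.5 FPKM in CD34-negative replicates 1 to 4. The positive replicates 1 to 3 had 148, 54.1 and 160 FPKM. The groups overlapped, and both libraries of number 2 were the lowest of their group. The means were 93.5 ± 49.5 FPKM (SD, n = 4) and 120 ± 57.8 FPKM (SD, n = 3). Across the groups the log2 difference was 0.45 (SE 0.66, limma, adjusted p = 0.9999, 95% interval -1.06 to 1.96), and without CD34-negative replicate 2 it was -0.065. Within pairs the positive library was always higher, by 0.998 in number 2, 0.23 in number 3, and 0.89 and 0.23 in number 4 against negative replicates 3 and 4. With the replicate block the log2 difference was 0.59 (SE 0.22, limma, unadjusted p = 0.0308, adjusted p = 0.183).

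Mybl2, the mitotic member, gave 18.4, 45.2, 8.35 and 10.1 FPKM in CD34-negative replicates 1 to 4 and 19.97, 35.9 and 8.54 FPKM in positive replicates 1 to 3. Its level followed the number of the library: the number 2 libraries were highest, number 3 intermediate and number 4 lowest in both groups. The number 4 libraries are also those low in ribosomal protein genes, and the part of that in the Mybl2 level was not tested. Within pairs the log2 differences lay between -0.32 and 0.11. The blocked 95% interval ran from -0.46 to 0.26 (limma, adjusted p = 0.727), and without the block it ran from -1.31 to 1.62.

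Myc, the main driver of growth genes in the family, had 87.4, 101, 49.8 and 89.8 FPKM in CD34-negative replicates 1 to 4. CD34-positive replicates 1 to 3 had 64.3, 39.1 and 37.1 FPKM. CD34-negative replicate 3 lay below positive replicate 1, so the groups overlapped. They did not overlap without CD34-negative replicate 3, when 8.06% of all genes had no overlap in either direction, or without CD34-positive replicate 1, when 8.58% had none. Other members also lost their overlap when a library was left out: Max was lower without CD34-negative replicate 3, Mycn lower without CD34-positive replicate 1, Myb higher without CD34-positive replicate 2 (11.9% of all genes in either direction) and Mxd1 lower without CD34-positive replicate 3 (12.1%). The group means were 82.0 ± 22.2 FPKM (SD, n = 4) and 46.9 ± 15.2 FPKM (SD, n = 3), a log2 difference of -0.79 (SE 0.39, limma, unadjusted p = 0.0760, adjusted p = 0.9999). Every pair had the lower value in the positive library. The log2 differences were -1.34 in number 2, -0.44 in number 3, and -0.41 and -1.25 in number 4. With the replicate block the difference was -0.87 (SE 0.25, limma, unadjusted p = 0.0121, adjusted p = 0.125).

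Mycn, the paralogue best known from neural and stem cells, was scarce. It lay between 1.75 and 4.74 FPKM in the negative and between 1.55 and 5.80 FPKM in the positive libraries. Mycn made up 2.18% to 8.27% of the summed Myc and Mycn FPKM. Both number 3 libraries were the highest of their group. The log2 difference was -0.10 (SE 0.42, limma, adjusted p = 0.9999, 95% interval -1.07 to 0.87), and the pairs differed in sign.

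Max, the shared partner of Myc and Mxd proteins, was the steadiest member, with a highest level 1.53 times its lowest. It stood at 54.3, 49.1, 35.6 and 48.8 FPKM in CD34-negative replicates 1 to 4 and at 44.0, 38.8 and 36.1 FPKM in positive replicates 1 to 3. The positive library was lower in 3 of 4 pairs, with log2 differences of -0.30, -0.33 and -0.43, and CD34-negative replicate 3 was the exception at 0.02. The log2 difference was -0.23 (SE 0.30, limma, adjusted p = 0.9999, 95% interval -0.92 to 0.46).

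Mxi1, a Max partner that represses Myc targets, had 6.06, 12.2, 8.51 and 11.0 FPKM in CD34-negative replicates 1 to 4. CD34-positive replicates 1 to 3 held 3.16, 3.30 and 3.65 FPKM. The positive libraries were thus both lower and closer to each other than the negative ones, with means of 3.37 ± 0.26 FPKM (SD, n = 3) and 9.46 ± 2.75 FPKM (SD, n = 4). The negative library held 1.92 times the FPKM of the positive one in number 3, 3.71 times in number 2, and 2.33 and 3.02 times in number 4. The log2 difference was -1.22 (SE 0.30, limma, unadjusted p = 0.00294, adjusted p = 0.564, 95% interval -1.90 to -0.54), the 48th smallest p of 9259. With the replicate block it was -1.20 (SE 0.20, limma, adjusted p = 0.0931). With the block it passed 0.05 when CD34-negative replicate 1 (limma, adjusted p = 0.0348), CD34-positive replicate 1 (limma, adjusted p = 0.0376) or CD34-negative replicate 3 (limma, adjusted p = 0.0446) was left out. Leaving out either replicate 1 takes the number 3 pair out of the blocked difference, so those fits are the same comparison. The blocked fits with a library left out were added after seeing the data, and many other genes passed in them. Without CD34-negative replicate 1, 236 genes were called higher and 85 lower of 9169. The counts were 221 and 81 of 9177 without CD34-positive replicate 1, and 46 and 137 of 9134 without CD34-negative replicate 3. Over all 21 alternatives the adjusted p ran from 0.0348 to 0.99997 and the unadjusted p from 0.000524 to 0.0146. GENCODE places a gene on the opposite strand, Gm10197, over exon sequence of Mxi1, and whether counting used strand is not given in the sources used here.

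The sum of the erythroid markers was also lower in the positive library of 3 of 4 pairs. Of 10 erythroid markers 9 were among the genes used, which leave out repeated symbols. Of these 9 markers, 7 reached 1 FPKM in at least 3 libraries, Slc4a1 stayed under 1 FPKM, and none was at 0 throughout. Their summed FPKM ranged from 207 to 2138 in the negative and from 124 to 734 in the positive libraries. In pairs the sums were 345 against 124 in number 3, 2138 against 734 in number 2, and 207 and 810 against 209 in number 4. Not every marker followed the sum. Tfrc was at 71.1 against 67.0 FPKM in number 3, 75.9 against 84.8 in number 2, and 62.7 and 126 against 65.1 in number 4. The part of erythroid cells in the Mxi1 difference was not tested. In bulk samples like these, fewer cells of a type and less RNA per cell cannot be told apart.

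The other repressors showed no common direction. Mxd1, the repressor typical of maturing myeloid cells, was at 7.02, 13.9, 63.6 and 12.8 FPKM in CD34-negative replicates 1 to 4 and at 6.74, 5.06 and 16.5 FPKM in positive replicates 1 to 3. CD34-negative replicate 3 stood above all others, and the range over the libraries, 12.6 times from lowest to highest, was the widest of the 9 members. The same library had the most mast cell marker RNA, a summed 10434 FPKM for 7 genes (6 of which reached 1 FPKM in at least 3 libraries) against 1653 to 3211 FPKM elsewhere, and the part of mast cells in the Mxd1 level was not tested. The log2 difference of -0.95 (SE 0.70, limma, adjusted p = 0.9999) was -0.33 without that library.

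Mxd4, which was the most abundant repressor in every library but CD34-negative replicate 3, ranged from 20.7 to 43.6 FPKM in the negative and from 23.0 to 45.5 FPKM in the positive libraries. The 3 libraries of number 4 were the lowest. Its log2 difference was 0.18 (SE 0.39, limma, adjusted p = 0.9999, 95% interval -0.71 to 1.06). Mxd3, expressed mainly in dividing cells, ranged from 2.76 to 7.98 FPKM in the negative and from 3.36 to 8.43 FPKM in the positive libraries, with number 4 again lowest. Its log2 difference was 0.25 (SE 0.40, limma, adjusted p = 0.9999, 95% interval -0.67 to 1.16). Mxd3 shares exon sequence with Prelid1 on the other strand, which stood at 125 to 450 FPKM, so the low Mxd3 values are uncertain. Myb and Mxd4 likewise overlap a gene on the opposite strand, Gm26577 and Gm42846.

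**Figure D2:**
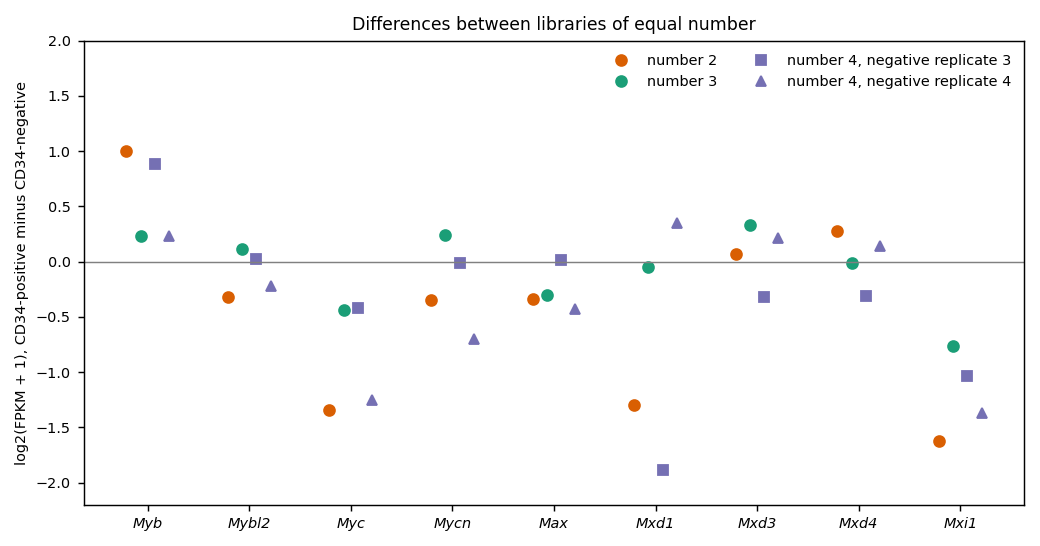
Difference in log2(FPKM + 1), CD34-positive minus CD34-negative, for each pair of libraries of equal number (vertical axis) and each member (horizontal axis), where the 2 number 4 pairs share the positive library. All 4 points lie above 0 for Myb and below 0 for Myc and Mxi1, and the other members have points on both sides.

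Ratios within a library do not depend on its scaling, so the balance between members was compared that way, as values with no test. Myb FPKM was 1.44, 0.264, 1.72 and 1.51 times Myc FPKM in CD34-negative replicates 1 to 4, and 2.30, 1.38 and 4.30 times in positive replicates 1 to 3. The positive library had the higher ratio in every pair, by 2.39 in number 2, 0.67 in number 3, and 1.32 and 1.51 in number 4 on the log2 scale. Myb was higher and Myc lower in every pair, so the sign of this ratio was fixed by those values and is no separate support. CD34-negative replicate 2 was the only library with less Myb than Myc. The ratio of Myb to Mybl2 ranged from 0.588 in CD34-negative replicate 2 to 18.7 in CD34-positive replicate 3, and it was highest in number 4 in both groups.

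Myc was 1.61, 2.05, 1.40 and 1.84 times Max in CD34-negative replicates 1 to 4, and 1.46, 1.01 and 1.03 times in positive replicates 1 to 3. Positive replicate 1 exceeded CD34-negative replicate 3, so these groups overlapped, though the positive library was the lower one of every pair. Myc and Mycn together were 1.48, 1.44, 0.490 and 1.97 times the summed Mxd1, Mxd3, Mxd4 and Mxi1 in CD34-negative replicates 1 to 4 and 1.16, 0.652 and 0.835 times in positive replicates 1 to 3. This ratio was lower in the positive library in 3 of 4 pairs. The exception was CD34-negative replicate 3, where Mxd1 made up 60.4% of the repressor sum. Set against Mxi1 alone, Myc went the other way: the log2 ratio of Myc to Mxi1 was higher in the positive library of every pair, by 0.53 in number 2, 0.50 in number 3, and 0.79 and 0.32 in number 4.

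**Figure D3:**
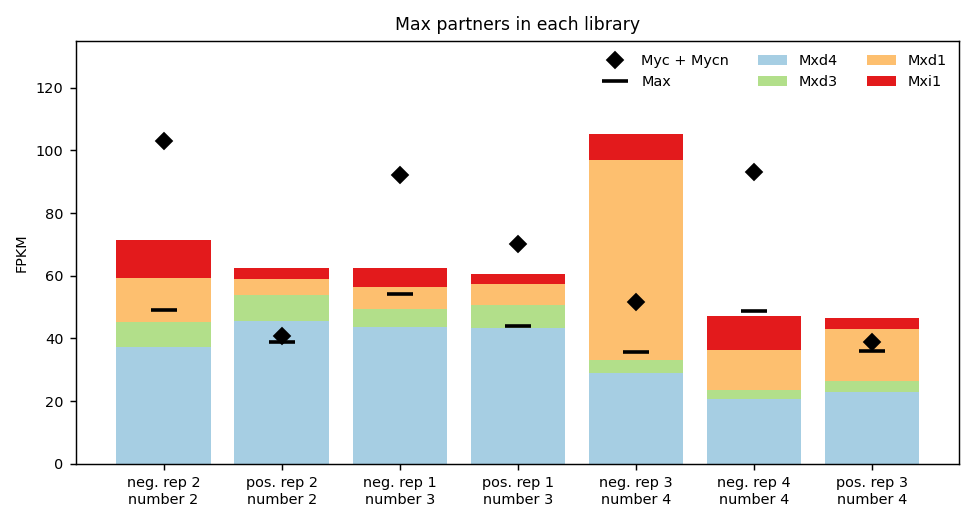
Stacked bars give the FPKM of the 4 repressors Mxd4, Mxd3, Mxd1 and Mxi1 in each library, diamonds the sum of Myc and Mycn, and dashes Max. In each pair the diamond is lower in the positive library, and the Mxd1 segment of CD34-negative replicate 3 stands out at 63.6 FPKM.

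**Figure D4:**
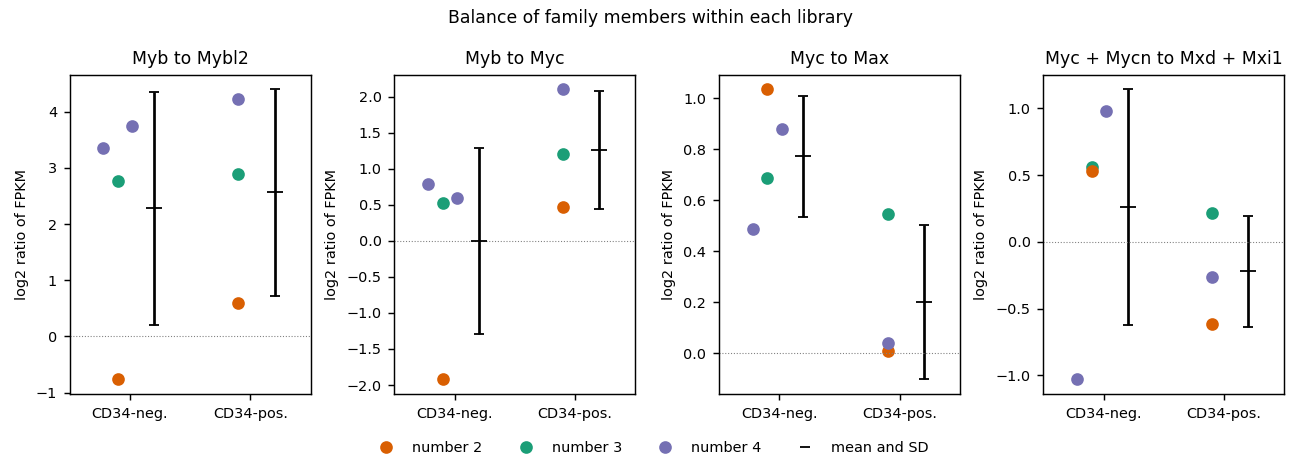
Log2 ratios of FPKM between members in each library (vertical axes), by CD34 group and coloured by number, with mean and SD. Myb to Mybl2 spans 0.588 to 18.7 as a plain ratio, and the Myb to Myc ratio is highest in CD34-positive replicate 3 at 4.30.

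Mxi1 made up 9.71%, 17.1%, 8.08% and 23.3% of the repressor sum in CD34-negative replicates 1 to 4. In positive replicates 1 to 3 it made up 5.22%, 5.29% and 7.85%. The groups did not overlap in this share, though 8.08% and 7.85% are close, and it was lower in the positive library of every pair. Against CD34-negative replicate 3, where Mxd1 made up 60.4% of the sum, the difference was only -0.23 percentage points. The share is built on the Mxi1 values given above, so it is no separate support.

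The genes with profiles most like those of 4 members were found from the root mean square difference of log2(FPKM + 1) over the 7 libraries, each gene centred on its own mean. For Myb they were Sh3bgrl (0.17), Taf2 (0.17) and Qk (0.18), where the median gene was at 0.98. For Mybl2 they were Chchd4 (0.09), Ddx28 (0.10) and Sephs2 (0.10), against a median of 0.88. For Myc they were Rfx2 (0.11), Kdm2b (0.14) and Slc25a42 (0.16), against a median of 0.72. For Mycn they were Nfix (0.14), C130036L24Rik (0.15) and Hspa2 (0.16), against a median of 0.66. The Myb and Mybl2 profiles were far apart, at 1.62, and Mybl2 ranked 8615th in likeness to Myb. Max was nearer to Myc, at 0.36 and rank 142. The libraries share their scaling and their number, so these distances are descriptions.

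Partners and targets were taken from 7 lists of textbook genes, and no member of any list passed over all genes in limma in either direction. Their median log2 differences are set beside the all-gene median of 0.09, or 0.04 with the replicate block. Of all genes, 21.4% were higher and 18.9% lower in all 4 pairs, and the count of each list is read against the 40.3% that kept 1 sign. Of 13 tested Myb and MuvB partners, whose median was 0.11 (blocked 0.27), 4 were higher in all 4 pairs (Mybl1, Lin9, Rbbp4 and Rbl1) and 1 was lower (E2f4), a share near that of all genes. List genes named for their sign in the pairs or for groups that did not overlap were, unless among the most abundant 4 of a list, chosen after their values were seen. Rbbp4, the histone-binding MuvB subunit, averaged 92.2 ± 27.9 FPKM (SD, n = 4) in CD34-negative and 120 ± 36.1 FPKM (SD, n = 3) in CD34-positive cells. E2f4, the repressive E2F of the resting complex, averaged 65.3 and 43.1 FPKM, Tfdp1, its dimer partner, 44.9 and 62.0 FPKM, and the coactivator Ep300 16.3 and 16.9 FPKM.

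Of 4 tested other Max network genes (median -0.13, blocked -0.19), 1 was lower in all 4 pairs, the Max-like factor Mlx at 16.8 and 15.4 FPKM. The repressor Mnt averaged 13.7 and 12.5 FPKM, Mga 6.60 and 6.47 FPKM and Mlxip 7.29 and 5.87 FPKM in the negative and positive groups. Among 19 tested Myc cofactors and turnover genes (median 0.25, blocked 0.15), 7 were higher and 1, Ruvbl1, lower in all 4 pairs, and these 8 of 19 are again near 40.3%. The groups of 2 of the 19, Pim2 and Skp2, did not overlap, both higher, as held for 2.67% of all genes. Pim2, a kinase that stabilises Myc, stood at 100, 24.0, 20.8 and 12.7 FPKM in CD34-negative replicates 1 to 4 and at 105, 111 and 120 FPKM in positive replicates 1 to 3. CD34-negative replicate 1 was close to the positive level. The helicases Ruvbl1 (71.6 and 70.2 FPKM) and Ruvbl2 (126 and 121 FPKM) and the Mxd corepressor Sin3b (96.0 and 130 FPKM) had overlapping groups.

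Of 29 tested genes that Myc is known to activate, 1 was higher (Cdk4) and 4 lower (Odc1, Cad, Ldha and Polr1b) in all 4 pairs, a total of 5 of 29, fewer than the 40.3% of all genes that kept 1 sign. The list's median difference was 0.17 across the groups and -0.06 with the replicate block. Its most abundant genes were Ldha, lactate dehydrogenase, at 1084 and 1071 FPKM in the negative and positive groups, the nucleolar chaperone Npm1 at 584 and 846 FPKM, Nme2 at 396 and 641 FPKM and the helicase Eif4a1 at 396 and 548 FPKM. Number 4 libraries were far below the others in Npm1, at 102 to 194 FPKM against 887 to 1397 FPKM. Of 8 tested genes that Myc is known to repress (median -0.16, and -0.0015 with the block), 2 were higher (Cdkn1a and Gadd45b) and 1 lower (Gadd45a) in all 4 pairs, 3 of 8 and near 40.3%. Of the 8, 1 was higher without overlap (Cdkn1a), beside 2.67% of all genes, and 1 lower (Gadd45a), beside 3.01%. The stress gene Gadd45a stood at 11.8 to 30.9 FPKM in the negative and at 4.75 to 10.1 FPKM in the positive libraries. The cell cycle inhibitor Cdkn1a averaged 109 ± 30.9 FPKM (SD, n = 4) in CD34-negative and 137 ± 3.63 FPKM (SD, n = 3) in CD34-positive cells. CD34-negative replicate 4 was low at 62.7 FPKM against 121 to 140 FPKM elsewhere. Btg2 averaged 57.6 and 57.4 FPKM. Klf6 averaged 26.2 and 12.1 FPKM and Ndrg1 145 and 121 FPKM, but CD34-negative replicate 3 stood far above the other negative libraries, at 77.2 FPKM for Klf6 and 307 FPKM for Ndrg1. The other 3 negative libraries had 4.17 to 13.99 FPKM of Klf6 and 47.5 to 115 FPKM of Ndrg1. Without that library the Klf6 log2 difference turned from -0.52 to 0.25, and that of Ndrg1 was 0.05 with all libraries.

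Among 11 tested genes that Myb is known to activate (median 0.47, blocked 0.33), 6 were higher and 1, Ets2, lower in all 4 pairs, beside 21.4% and 18.9% of all genes. Together these 7 of 11 stood against the 40.3% of all genes that kept 1 sign. Of the 16 listed, Elane, Ccna1, Cebpb, Mat1a and Adora2b did not pass the filter on low values. The groups of 2 of the 11, Ctsg and Gfi1, did not overlap, both higher, beside 2.67% of all genes. The granule enzyme genes Mpo and Ctsg were among the 6. Ctsg stood at 157, 112, 197 and 36.4 FPKM in CD34-negative replicates 1 to 4 and at 216, 652 and 344 FPKM in positive replicates 1 to 3. Gfi1, a zinc finger repressor of myeloid progenitors, was low, at 0.0541 to 1.36 FPKM in the negative and 2.50 to 3.09 FPKM in the positive libraries. Of the negative libraries only replicate 1 reached 1 FPKM. Gfi1 thus passed the filter on low values only through the positive libraries, and its lack of overlap is no separate support. Mpo, Ctsg and Prtn3 are also on the list of 9 neutrophil and monocyte markers, of which 8 were among the genes used. The summed FPKM of those 8 was 124 to 1310 in the negative and 1238 to 2356 in the positive libraries. Of those markers only 3, Mpo, Ctsg and Prtn3 themselves, reached 1 FPKM in at least 3 libraries. The sum therefore largely repeats their values and is not separate evidence. Elane, Csf1r and Csf3r stayed under 1 FPKM throughout. The part of such cells in these differences was not tested. Kit, the stem cell factor receptor, averaged 266 and 222 FPKM and the chaperone Hspa8 1115 and 1593 FPKM, both with overlapping groups. Of 20 tested late cell cycle genes of MuvB and Mybl2 (median 0.18, blocked 0.22), 7 were higher and 1, Cenpa, lower in all 4 pairs, and these 8 of 20 are close to 40.3%. Top2a averaged 108 and 116 FPKM, Birc5 73.0 and 72.8 FPKM, the centromeric histone Cenpa 70.1 and 56.1 FPKM and Cdc20 66.4 and 60.0 FPKM.

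**Figure D5:**
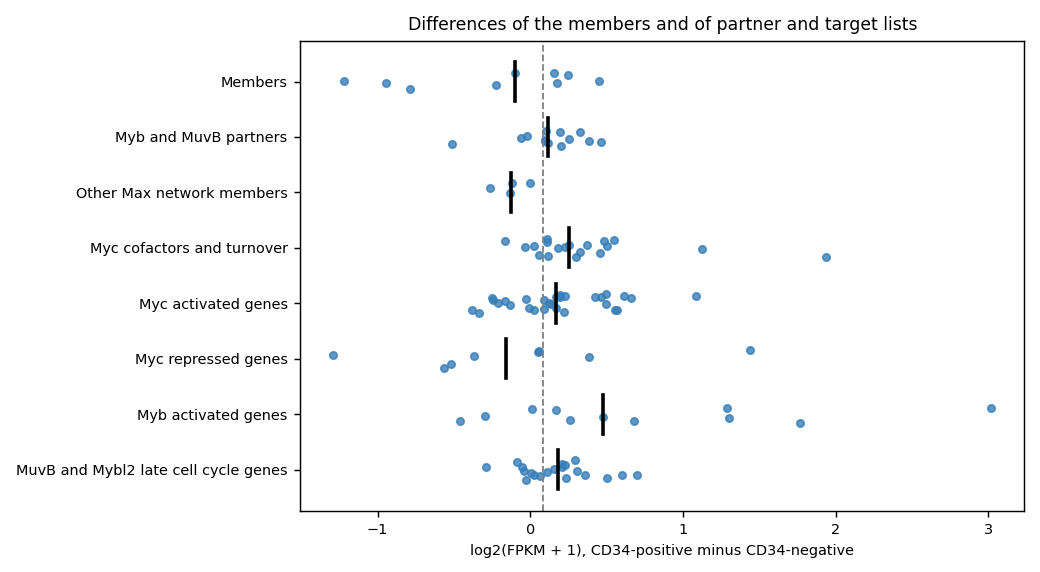
Log2(FPKM + 1) difference, CD34-positive minus CD34-negative (horizontal axis), for each tested member and list gene (points, shifted vertically to separate them), with the median of each list as a bar and the all-gene median of 0.09 as a dashed line. Mxi1 is the leftmost member at -1.22, and the Myb-activated genes have the highest list median, 0.47.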

How the data were processed

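Values are FPKM as the authors deposited them, 1 per gene symbol and library. The file header names no unit, which was taken from the values and from Cuffdiff. The submitters' processing notes name Cuffdiff, TopHat and TopHat2 and the builds mm9 and mm10. Which build, annotation or tool version served which library is not stated there. Rows of 105 repeated symbols (322 rows) were left out, none of them a member. Genes at 1 FPKM or more in 3 libraries or more were tested with limma 3.58.1 in R 4.3.3 on log2(FPKM + 1), with a mean-variance trend, Benjamini-Hochberg adjustment and a threshold of 0.05. Fold changes on that scale understate low genes. The fits were tested on simulated data with independent noise and no difference between library numbers, so that test does not cover the number effect seen here. Depth is unknown, so no counting interval is given. The members and lists were chosen with earlier results of these data known.

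Deviations from the group means correlated at 0.70 (number 3), 0.92 (number 2), and 0.82 and 0.85 (number 4) between libraries of equal number, which were therefore taken as pairs. Between libraries of unequal number they correlated at 0.22 and 0.37 for numbers 2 and 3. Against number 4 the correlations were -0.86 to -0.42, so the contrast is largest there. The number 4 libraries also share a low ribosomal protein share. Alternatives were pseudocount 0.1, no filter, a filter of 5 FPKM, quantile and median-ratio scaling, the replicate block, CD34-negative replicates 3 and 4 averaged into 1 sample within that block, and leaving out each library. The block with each library left out was added after seeing the data. Besides the members and cell type markers, the planned names were the 4 most abundant tested genes of each list, list members past the threshold (there were none), and the 3 nearest profiles of Myb, Mybl2, Myc and Mycn. Other list genes were named after their values were seen, for their sign in the pairs or for groups that did not overlap. Snhg9 and Snord15b were named because an alternative fit called them.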

Additional observations from a re-analysis of the deposited data

Results flagged for a closer look

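Among the CD34-negative libraries, 1 library stood far from the other 3 in 5 of 49 named genes, against 5.95% of all tested genes and 0 of the 9 members. Each value is the distance from that library to its closest neighbour, divided by the spread from lowest to highest on the log2 scale. CD34-negative replicate 2 was the distant library for Ep300 (0.862), Cenpa (0.894), Birc5 (0.915) and Qk (0.876), and CD34-negative replicate 4, with the lowest level, for Cdkn1a (0.927). The log2 ratio of Myb to Myc was also flagged, at 0.905, for CD34-negative replicate 2, the library with less Myb than Myc. Chance flags about 1 in 20 groups of independent values.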

How the results depend on the processing

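Over all genes, limma's calls stayed at 0 in each direction with pseudocount 0.1, without a filter, with the 5 FPKM filter, under both other scalings and with the replicate block. Leaving out 1 library gave 0 to 15 genes higher and 0 to 6 lower, both highest without CD34-negative replicate 1. Averaging CD34-negative replicates 3 and 4 within the replicate block gave 1 gene lower, Snhg9. The block with a library left out, chosen after seeing the data, gave 236 genes higher and 85 lower without CD34-negative replicate 1, 221 and 81 when CD34-positive replicate 1 was omitted, 46 and 137 without CD34-negative replicate 3, and 1 (Snord15b) and 0 without CD34-positive replicate 3. Both genes were named after their values were seen, and the cause of these counts was not tested.

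Mxi1 kept its sign in all 21 alternatives, from -1.41 to -1.01, with an unadjusted p under 0.05 in limma in each. It passed the adjusted threshold in 3 of them, at -1.38 in the paired fits without CD34-negative or CD34-positive replicate 1 and at -1.25 without CD34-negative replicate 3. With the block, leaving out either library of number 2 or of number 3 takes that whole pair out of the difference. The fits without either replicate 1 are therefore the same comparison, as are those without either replicate 2. Mxi1 kept its sign and stayed below an unadjusted p of 0.05 in limma in these too. Myc stayed between -1.05 and -0.65, and its unadjusted p was under 0.05 in 9 of 21. Leaving out 1 library moved Myb from -0.065 to 0.95, Mybl2 from -0.30 to 0.67, Mycn from -0.56 to 0.15 and Mxd4 from -0.016 to 0.48. The replicate block turned Mybl2 to -0.10, with or without the averaged replicates. With libraries left out of that fit Mybl2 was at -0.19 (either replicate 1), -0.0058 (either replicate 2), -0.14 (CD34-negative replicate 3), -0.061 (CD34-negative replicate 4) and -0.11 (CD34-positive replicate 3). In the same fits Mxd3 reached -0.00035 without either replicate 1, and Mxd4 was at -0.054 without either replicate 2 and -0.016 without CD34-negative replicate 4. No member or named list gene passed the adjusted threshold with the block and all libraries. Among the named list genes the block turned Ruvbl1 from 0.33 to -0.45, Ruvbl2 from 0.05 to -0.25, Ldha from 0.02 to -0.27, Eif4a1 from 0.61 to -0.02, Birc5 from 0.07 to -0.03 and Mga from -0.0038 to 0.23. Quantile and median-ratio scaling both turned Ruvbl2, Ldha, Ndrg1, Kit and Birc5 to below 0, and quantile scaling alone Ep300 and Top2a. Mycn was too low for the 5 FPKM filter. The log2 scale with a pseudocount compresses low genes such as Mycn and Mxd3, and unknown depth leaves their counting error unknown.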
